A study of Homo sapiens with 17 samples.

Results

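Nuclear pore and transport genes were a set of 39 genes, chosen because NDC1, a membrane protein of the nuclear pore, was lower after EZH2 siRNA in these data. The set holds 29 nucleoporins with NDC1 among them, 7 transport receptors and 3 genes of the Ran cycle. A gene was measured by its probe set with 1 annotated symbol, and by the brightest such probe set on average where it had several. Of the 39 members, 36 were measured, out of 18377 genes measured in all. NUP62, POM121 and RCC1 had only probe sets shared with other symbols and are not analysed here. All 36 measured members passed the filter on low signal on both kinds of array.

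The 17 arrays carried RNA from the established line NKYS, human natural killer lymphoma cells grown with 100 IU/mL of interleukin-2 and electroporated with siRNAs or plasmids. The siRNA arrays comprised 2 with JAK3 siRNA against 2 with a control siRNA run for them, and 2 with EZH2 siRNA against 2 with a control siRNA, where the titles tie each control array to its EZH2 siRNA array. The plasmid arrays comprised 6 with full-length EZH2 (Y244D, Y244A or WT), 1 with EZH2 lacking the SET domain (SET∆) and 2 with a vector control. JAK3 is the kinase that signals from the interleukin-2 receptor, and EZH2 is the enzyme of Polycomb repressive complex 2. The titles number the plasmid arrays as sets 1 and 2, each with its own vector array. In set 2 the title and the transfection field of the 3 full-length arrays name different constructs, so the alleles were pooled and these arrays are called by their titles. The array titled WT without a number was placed in set 2, since the other WT array is numbered 1, and the SET deletion array belongs to no numbered set. All arrays shared the line, the medium and electroporation, and no untransfected cells were among them. Whether replicate arrays stem from separate cultures is not stated in the labels, so p-values here rest on array-to-array spread that may be technical only.

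The nuclear pore complex is a channel through the nuclear envelope built from stacked rings of nucleoporins. The Y complex forms the outer rings, the inner ring joins them, membrane nucleoporins anchor the structure, and the central channel carries the phenylalanine-glycine repeats through which cargo passes. Filaments on the cytoplasmic face and a basket on the nuclear face dock cargo and messenger RNA. Importins and exportins carry proteins through the channel, and the small GTPase Ran, bound to GTP in the nucleus and to GDP in the cytoplasm, gives that transport its direction. Dividing cells assemble new pores both in interphase and as the envelope re-forms after mitosis.

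JAK3 had a signal of 138.1 and 136.7 on the JAK3 siRNA arrays, against 322.5 and 326.3 on their control arrays. EZH2 had a signal of 500.9 and 488.7 on the EZH2 siRNA arrays, against 926.3 and 690.8 on the paired control arrays. On the 6 full-length plasmid arrays EZH2 ranged from 802.5 to 2220.8 with a median of 950.7, against 258.8 and 349.5 on the vector arrays. Signal is the authors' linear intensity, and both targeted genes moved in the direction of their labels. The cytotoxic markers PRF1 and NKG7 lay at 1641 or above and 433 or above on every array, whereas CD2, a surface protein of many natural killer cells, was between 35.4 and 40.7, near the lower quartile of the arrays. The lowest values of GZMB, IL2RB, CD247 and NCR1 were 1069.1, 229.5, 205.3 and 169.7. NCAM1, KLRD1 and KLRC1 fell to 64.1, 62.9 and 54.2, each below the median of that array. Of the markers of other cell types, MS4A1 (B cells), LYZ (monocytes) and EPCAM (epithelium) were at or below 40.9 throughout, while KRT18 and CSF1R reached 430.3 and 240.4. In between were CD79A (48.7 to 75.2), PAX5 (71.8 to 90.5), CD14 (45 to 86.5), CD68 (77.4 to 124), COL1A1 (85.7 to 158.6) and COL1A2 (70.3 to 122.8). These levels overlapped those of NCAM1, KLRD1 and KLRC1.

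For the members on which the results below turn, RefSeq promoters (build GRCh38.p14) are shown as the 250 bases before the annotated start, on the gene's strand from 5′ to 3′. NDC1 (chr1:53838297-53838546, minus strand) and NUP205 (chr7:135557667-135557916, plus strand) were the members called lower after EZH2 siRNA. NUP54 (chr4:76148398-76148647, minus strand) had the lowest difference after JAK3 siRNA, and its window overlaps the non-coding gene LOC124900718. NUP210 (chr3:13420323-13420572, minus strand) differed little after either siRNA. Capitals mark matches to the motifs searched.
NDC1: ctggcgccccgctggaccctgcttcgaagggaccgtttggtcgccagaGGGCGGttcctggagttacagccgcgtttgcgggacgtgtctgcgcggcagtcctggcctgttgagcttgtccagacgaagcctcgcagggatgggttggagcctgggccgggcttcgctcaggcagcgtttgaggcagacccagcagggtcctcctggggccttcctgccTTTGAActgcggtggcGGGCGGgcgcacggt
NUP205: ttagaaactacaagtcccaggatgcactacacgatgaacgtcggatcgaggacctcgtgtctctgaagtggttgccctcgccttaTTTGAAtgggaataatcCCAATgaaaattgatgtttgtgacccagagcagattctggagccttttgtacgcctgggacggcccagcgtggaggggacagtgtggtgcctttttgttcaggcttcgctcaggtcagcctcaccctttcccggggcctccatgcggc
NUP54: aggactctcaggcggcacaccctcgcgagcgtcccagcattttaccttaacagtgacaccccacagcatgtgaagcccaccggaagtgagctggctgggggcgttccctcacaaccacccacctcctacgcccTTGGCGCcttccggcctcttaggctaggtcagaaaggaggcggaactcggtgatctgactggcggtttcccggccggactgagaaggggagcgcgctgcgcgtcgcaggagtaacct
NUP210: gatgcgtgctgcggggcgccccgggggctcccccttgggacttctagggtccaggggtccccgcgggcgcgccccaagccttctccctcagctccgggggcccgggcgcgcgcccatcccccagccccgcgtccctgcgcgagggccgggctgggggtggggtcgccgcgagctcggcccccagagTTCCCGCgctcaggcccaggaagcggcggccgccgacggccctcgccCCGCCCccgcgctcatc

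The 7 motifs were searched on both strands in the windows of 33 of the 36 measured members, which have 43 windows. TTTGAA, the core of the cell cycle homology region element, occurred in 25.6% of the member windows, against 13.3% of all 35116 windows. These windows belong to 10 members, among them NDC1, 31 to 26 bases before the start, and NUP205, 165 to 160 bases before it. The CCAAT box occurred in 39.5% of member windows against 32% of all, and GGGCGG, the GC box, in 53.5% against 42.6%. CACGTG, the E box, was found in 11.6% (5 windows) against 6.34%, and CATGCGC, part of the NRF1 site, in 7.0% (3 windows) against 3.77%. The E2F-type motifs TTCCCGC and TTGGCGC occurred in 7.0% and 4.7% of member windows (3 and 2 windows), against 5.52% and 2.56% of all windows. Such shares rest on few windows, and no motif was tested against all windows. NUP54 holds TTGGCGC and NUP210 holds TTCCCGC. A match is a run of letters in this window and says nothing of a factor's binding.

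After EZH2 siRNA all 36 members had a log2 difference below 0 on average over both pairs (35 after quantile normalization), each by its brightest probe set, with a median of -0.21, against -0.004 for all 14466 genes tested. NDC1 was chosen for its decrease here, so these values are a description and carry no test of the members. By limma with Benjamini-Hochberg adjustment, 2 members were called lower (NDC1 and NUP205), and 0.567% of all genes were called lower and 0.373% higher. Nothing is read from that count, since the comparison chose the set, and both calls were lost with quantile normalization, no filter, array weights, array spread as a covariate or no pairing.

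NDC1, which anchors the pore in the membrane and is needed for pore assembly, had a signal of 344 and 414 with EZH2 siRNA, against 662 and 512 on the paired control arrays. Both EZH2 siRNA arrays lay below both controls, and the difference was -0.94 in pair 1 and -0.31 in pair 2 on the log2 scale. The other measured membrane nucleoporin, NUP210, had 666 and 698 with EZH2 siRNA against 724 and 646, and its groups overlapped. Its average difference was -0.003, the smallest of all members, so the pair of membrane proteins spanned the whole range of the set.

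The 5 inner ring members had a median difference of -0.28 and all lay below both controls on both EZH2 siRNA arrays. NUP205, a large scaffold protein of this ring, had 496 and 581 with EZH2 siRNA against 688 and 697, a difference of -0.37. NUP93, which links the ring to the central channel, had 306 and 338 against 429 and 378, a difference of -0.32. The smallest difference of the ring was that of NUP155 (-0.14), with 843 and 885 against 986 and 912. The 8 Y complex members were likewise all lower without overlap, with a median of -0.24. They ranged from SEH1L, shared with the complex that senses amino acids, with 303 and 370.3 against 443 and 391 (-0.31), to NUP43 with 408 and 399 against 471 and 422 (-0.14).

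The 7 proteins of the cytoplasmic face had a median of -0.15 and were lower without overlap in 4. NUP88, which holds NUP214 at the pore, had 264 and 299 with EZH2 siRNA against 402 and 348. Its difference was -0.41, and both siRNA arrays lay below both controls. GLE1, an activator of the helicase that releases messenger RNA, had 217 and 212 against 229.9 and 215 (-0.05). In the central channel, NUP54 had 345 and 392 with EZH2 siRNA against 416 and 461 (-0.25), and NUP58 had 556 and 593 against 610.4 and 578 (-0.05), with overlap.

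The nuclear basket and the Ran cycle showed the smallest medians, at -0.13 over 3 members and -0.09 over 2. NUP50, a basket protein that helps release import cargo, had 144 and 131 with EZH2 siRNA against 142 and 169.7 (-0.18). It was the only member that lay above its control in pair 1. NUP153, which tethers the basket, had 576 and 606 against 596 and 653 (-0.08). For both genes the siRNA and control arrays overlapped. RAN had 977 and 1079 against 1119 and 1141 (-0.14), whereas its second probe set lay above 0 (0.04). RANGAP1, which makes Ran hydrolyse GTP, had 246 and 236 against 277 and 221 (-0.04).

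Among the 7 transport receptors the median difference was -0.23, and 5 were lower without overlap. KPNB1, the main import receptor, had 1108 and 1262 with EZH2 siRNA against 1464 and 1421 (-0.29). IPO7, an importin that also brings ribosomal proteins into the nucleus, had 679 and 733 against 733 and 747 (-0.07), with its highest siRNA array at the level of its lowest control. KPNA2, the adaptor that reads classical import signals, had 1537 and 1788 against 2145 and 1771, so that it was lower in pair 1 only.

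The pairs of arrays were unequal. In pair 1, 35 of 36 members were below 0 with a median of -0.28, and in pair 2, 30 of 36 with a median of -0.11, while all genes had medians of -0.03 and 0.01. Across the 36 members the differences in the pairs correlated with r = 0.23, and across all 14466 genes with r = 0.17. Members are not independent replicates, and these are descriptions. Leaving out an array leaves 1 EZH2 pair, with the spread taken from the JAK3 arm. Without an array of pair 1 the fit called 0 members and 0 of all genes, and without an array of pair 2 it called 14 members and 1511 of all genes, from which nothing is read about the members. The groups did not overlap in 26 of 36 members, each with EZH2 siRNA lower, whereas 20.8% of all genes lay lower without overlap and 16.6% higher.

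Proliferation markers were also lower in this comparison. All 8 (MKI67, TOP2A, CCNB1, CCNA2, PCNA, MCM2, MCM5 and CDC6) had differences below 0, with a median of -0.30, and 2 of them, CCNA2 and CDC6, were called. Both calls were lost with no filter, array weights or array spread as a covariate, where the fit called 0 of all genes. Of the 10 natural killer markers, 8 lay above 0, with a median of 0.16. By pair, 9 lay above 0 in pair 1 (median 0.17) and 7 in pair 2 (0.08). GZMB (0.859 and -0.043) and KLRC1 (0.983 and -0.178) were higher in pair 1 only. The interquartile range of log2 signal was 2.265 and 2.267 on the EZH2 siRNA arrays against 2.281 and 2.298 on the controls. The part of these in the members' values was not tested. In bulk RNA, fewer cells of a kind and less RNA per cell cannot be told apart.

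**Figure D1:**
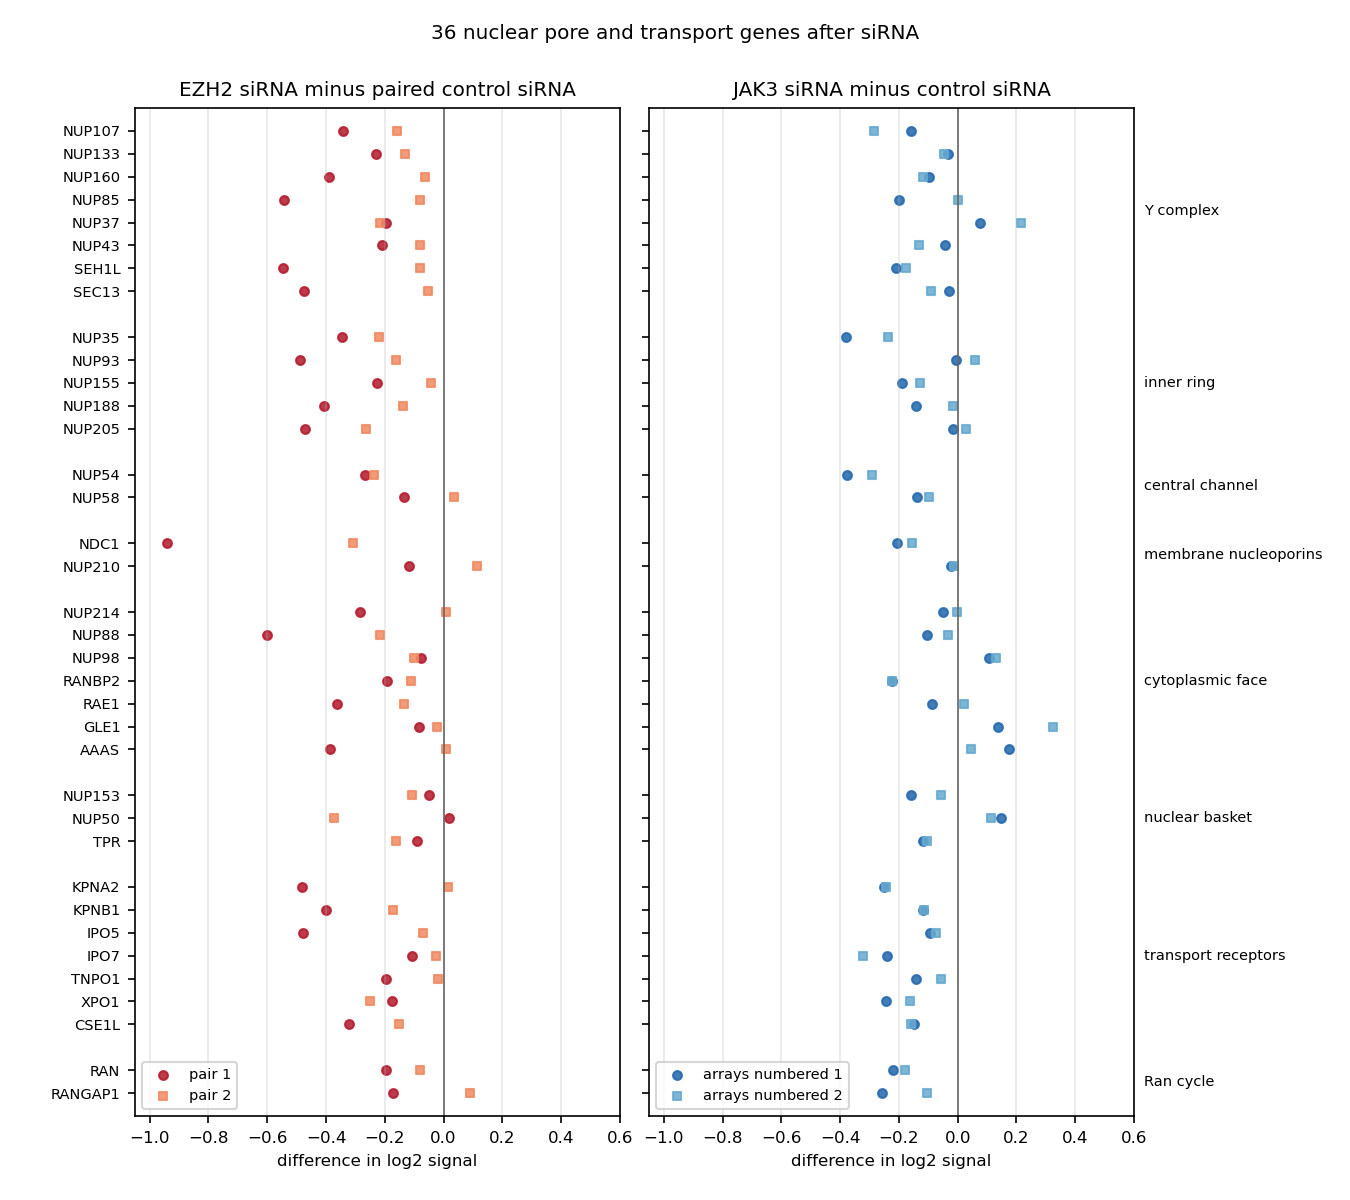
Difference in log2 signal (x axis) of the 36 members, grouped by their place in the pore or in transport (y axis), for each pair of EZH2 siRNA and control arrays (left) and for same-numbered JAK3 siRNA and control arrays (right). In the left panel 35 of 36 members of pair 1 and 30 of 36 of pair 2 lie below 0, and in the right panel AAAS, GLE1, NUP37, NUP50 and NUP98 lie above 0 in both numbers.

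JAK3 siRNA asks the same of an siRNA whose comparison did not choose the set, with control arrays of its own. EZH2 itself was lower on these arrays too, with 776.4 and 763.4 against 890.8 and 871.1. Its log2 difference was -0.19, with a limma unadjusted p of 0.0479 and adjusted p of 0.4. Here 0 of 36 members passed limma's test after Benjamini-Hochberg adjustment, where 0.760% of all genes fell and 0.622% rose. At an unadjusted p under 0.05 there were 9 of 36 members on the lower side and 1 on the higher side, against 7.02% and 5.39% of all genes. Members lay below 0 in 29 of 36, with a median log2 difference of -0.10, against 7847 of 14466 genes and a median of -0.01 for all genes tested. The JAK3 siRNA arrays were lower than both controls in 24 members, or 66.67%, against 27.1% of all genes, and higher in 5, or 13.89%, against 21.2%.

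NUP54, a repeat protein of the central channel, came closest to the threshold. It had a signal of 369 and 352 with JAK3 siRNA, against 479 and 430.4 on the control arrays. Both siRNA arrays lay below both controls, and the log2 difference was -0.33 ± 0.08 (SE), with a limma adjusted p of 0.0592. This value was under 0.05 in 3 of 14 alternatives, among which it ranged from 0.0106 to 0.593. NUP58, its partner in the channel, had 613 and 614 with JAK3 siRNA against 675 and 657 (-0.12, limma adjusted p = 0.583).

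All 9 measured transport receptors and Ran cycle genes lay below 0, with a median of -0.18, against 20 of 27 nucleoporins with a median of -0.08. The 7 receptors were each lower without overlap. IPO7 had 698 and 624 with JAK3 siRNA against 825 and 779.6, a difference of -0.28 ± 0.08 with a limma adjusted p of 0.131. KPNA2 had 1479 and 1402 against 1759.8 and 1662 (-0.25, limma adjusted p = 0.33), and a second probe set of this gene gave -0.25 as well. XPO1, the exportin for leucine-rich export signals, had 757 and 714 against 897 and 799 (-0.20, limma adjusted p = 0.3). IPO5 was the receptor nearest to 0, with 767 and 751 against 818 and 789.8 (-0.08).

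Both Ran cycle genes were near the same value. RANGAP1 had 211 and 228 with JAK3 siRNA against 253 and 245 (-0.18, limma adjusted p = 0.394). RAN had 1069 and 940.5 against 1245 and 1066, a difference of -0.20 in which the groups overlapped. The second probe set for RAN gave -0.06 here, so that its probe sets disagree on the size after JAK3 siRNA and on the direction after EZH2 siRNA.

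In the nucleoporins the differences ran both ways. NUP35, an inner ring protein that binds membrane, had 214 and 202 with JAK3 siRNA against 279 and 238 (-0.31 ± 0.09, limma adjusted p = 0.131). NUP205, by contrast, had 575 and 577 against 582 and 565 (0.01), and NUP93 had 366 and 369.5 against 368 and 354 (0.03). Both overlapped their controls here, unlike after EZH2 siRNA, and the difference between the siRNA comparisons was not tested.

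NDC1 had 469 and 483 with JAK3 siRNA against 541 and 538, without overlap (-0.18 ± 0.11, limma adjusted p = 0.593). That SE comes from the fit shared with the EZH2 arm, where the NDC1 pairs differed (-0.942 and -0.307). Its same-numbered JAK3 differences were -0.207 and -0.155. NUP210 had 550.2 and 553 against 558 and 558 (-0.02). NUP107, the core of the Y complex stem, had 667 and 597 against 744 and 726 (-0.22, limma adjusted p = 0.261). In the same complex NUP37 had 435 and 430.0 against 412 and 369.9, higher by 0.15 (limma adjusted p = 0.474).

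The cytoplasmic face held the member with the highest difference. GLE1 had 247 and 267 with JAK3 siRNA against 225 and 213 (0.23 ± 0.07, limma adjusted p = 0.191). RANBP2, the filament protein that binds Ran and attaches SUMO, had 342 and 328 against 399.7 and 384 (-0.22, limma adjusted p = 0.189). It is also covered by probe sets shared with its near-identical RGPD copies, which were not used. NUP98 and AAAS were higher without overlap, with 664 and 650.5 against 617 and 595, and with 313 and 291 against 278 and 281. In the basket, NUP50 had 143 and 134 with JAK3 siRNA against 129 and 124 (0.13), and TPR, the filament of the basket, had 952 and 926 against 1034 and 995 (-0.11). None of these 6 genes passed the test.

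The 2 same-numbered differences correlated across the 36 members with r = 0.83, against 0.57 across all genes. The average differences after EZH2 and JAK3 siRNA, which have separate controls, correlated with r = 0.16 across members and 0.33 across all genes. These are descriptions across genes of the same arrays.

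Other genes of the pathway were described from a further list of 28 importins, exportins, messenger RNA export factors, Ran regulators and remaining nucleoporins, of which 25 were measured. After EZH2 siRNA 23 of 25 were below 0 with a median of -0.15. The lowest were RANBP1, a partner of RANGAP1, at -0.44 and IPO11 at -0.34, and the highest were KPNA1 at 0.03 and XPOT, the transfer RNA exportin, at 0.003. After JAK3 siRNA 20 of 25 were below 0 with a median of -0.08, between RANBP1 and KPNA3 (-0.25 and -0.21) and XPO7 and IPO13 (0.09 and 0.14). Limma called 0 of these 25 genes after JAK3 siRNA, with 4 at an unadjusted p under 0.05, all on the lower side, where 7.02% of all genes were. Of the 8 proliferation markers, 6 were below 0 after JAK3 siRNA with a median of -0.13, and their part in the members' values was not tested.

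**Figure D2:**
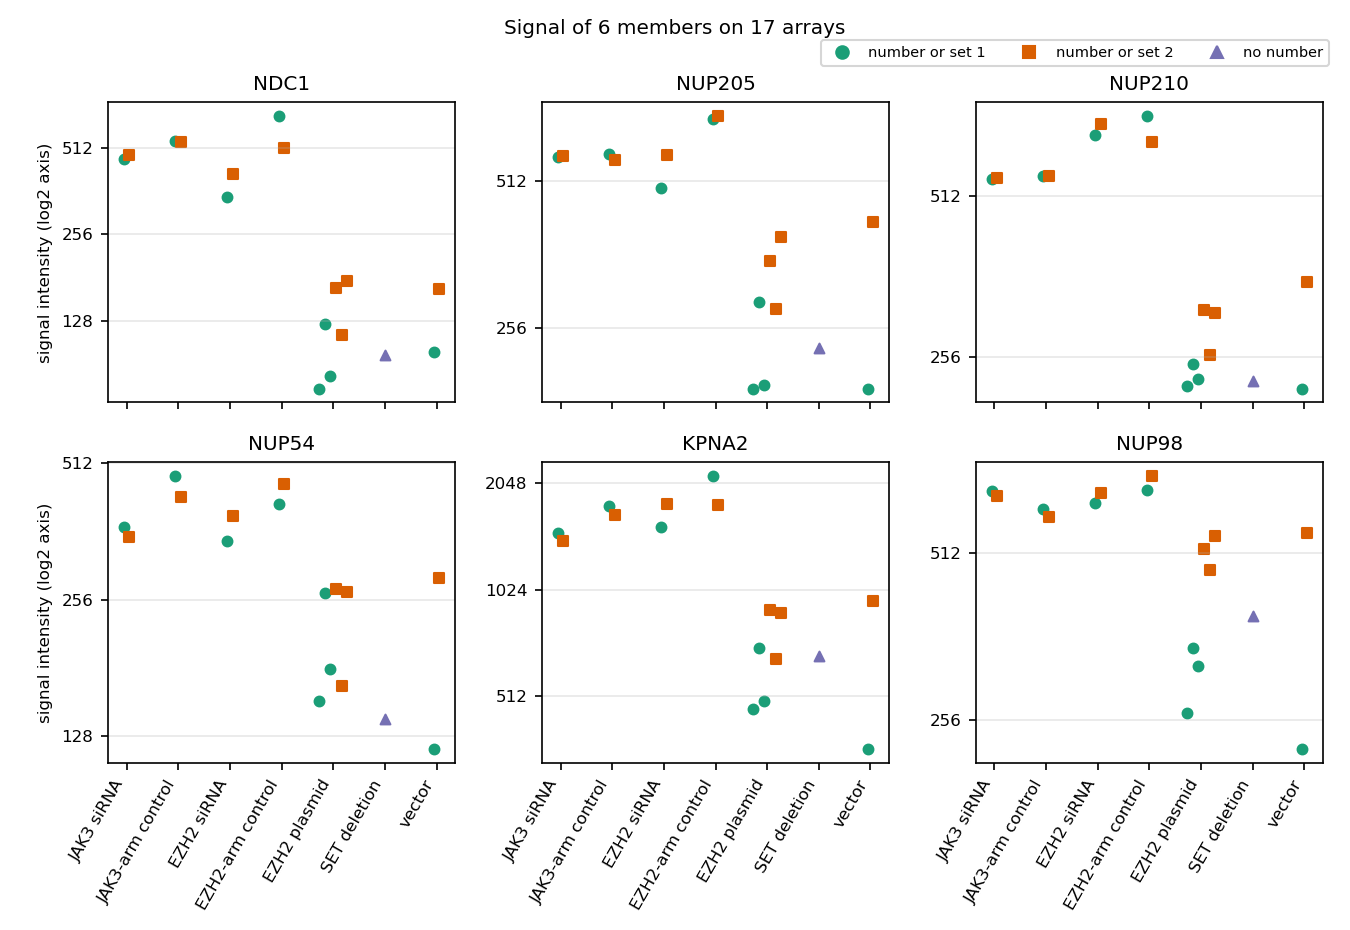
Signal (log2 axis) of NDC1, NUP205, NUP210, NUP54, KPNA2 and NUP98 on each of the 17 arrays, by group on the x axis, each point 1 array. NDC1 is at 344 and 414 with EZH2 siRNA against 662 and 512 on the control arrays, and the vector arrays of sets 1 and 2 lie apart in all 6 genes.

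The plasmid comparison asks whether added EZH2 moves the members. Against the 2 vector arrays, 0 of 36 members passed limma's test on the 6 full-length arrays, with 0 at an unadjusted p under 0.05. The same test called 0% of all 14410 genes lower and 0% higher, with 0.0278% and 0.0416% at an unadjusted p under 0.05, although EZH2 itself was higher by 1.85 on the log2 scale. This fit had no term for the set, so the difference between the sets entered its spread. Its lack of calls therefore cannot tell whether added EZH2 moves the members. With the set as a block limma called 0 members, and 0 members and 54 of all genes had an unadjusted p under 0.05. Members lay below 0 in 12 of 36, with a median of 0.09, and ranged from NDC1 at -0.14 to NUP58 at 0.21. None of them separated the plasmid arrays from both vectors, which 0.486% of all genes did on the lower side and 0.278% on the higher side.

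NDC1 had 74.0, 124 and 82.2 on the arrays titled Y244D, Y244A and WT of set 1, against 99.8 on the vector array, and 167, 114 and 176 in set 2 against 165. The plasmid arrays lay on both sides of the vector in each set, and the difference over both sets was -0.14 ± 0.35 (SE), with a limma adjusted p of 1.0. NUP58 had 236, 374 and 300.5 in set 1 against 199, and 386, 263 and 370.0 in set 2 against 373. It was above the vector on all arrays of set 1, and only the array titled Y244D exceeded it in set 2.

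The 2 sets pointed opposite ways. Within set 1, 33 of 36 members were above the vector on average with a median of 0.36, and within set 2, 35 of 36 were below it with a median of -0.17. Medians for all genes were 0.04 and -0.04. In set 1 the exceptions were NDC1 (-0.13), NUP85 (-0.10) and KPNB1 (-0.02), and in set 2 the exception was IPO7 (0.06). On 17 members, or 47.22%, all 3 arrays of set 1 lay above their vector and all 3 of set 2 below theirs, which 19.6% of all genes did. The opposite was seen in 0 members and in 9.37% of all genes. The 25 other transport genes had medians of 0.38 in set 1 and -0.14 in set 2, with 22 above the vector and then 25 below it.

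By group, the central channel had the largest spread between the sets. NUP54 had 153, 265 and 179.9 in set 1 against 119.8 on the vector array, and 269.6, 165 and 266 in set 2 against 285. Its set 2 minus set 1 difference was -1.02 ± 0.46, with an unadjusted p of 0.0495 and a limma adjusted p of 0.4. SEC13, a Y complex member that also coats transport vesicles, had 218, 310.1 and 232 against 165, and 279.9, 212 and 271 against 329.8 (-0.99 ± 0.33, limma adjusted p = 0.4). Medians of this set difference were -0.88 in the channel, -0.58 in the Y complex, -0.58 in the receptors, -0.57 on the cytoplasmic face, -0.53 in the inner ring, -0.30 in the Ran cycle, -0.27 in the basket and -0.18 in the membrane proteins.

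All 36 members had a set difference below 0, with a median of -0.54 against -0.08 for all genes, but 0 passed the test and 0% of all genes did. The limma test gave an unadjusted p under 0.05 in 6 of 36 members, all below 0, where 10.0% of all genes had one below 0 and 2.22% above. Lowest after NUP54 and SEC13 were NUP133 (-0.94), KPNA2 (-0.84) and NUP37 (-0.81), and nearest to 0 were NUP85 (-0.03) and NDC1 (-0.01). Of the 25 other transport genes, 24 had a set difference below 0, with a median of -0.47 and 6 at an unadjusted limma p under 0.05. Natural killer markers were below 0 in 7 of 9 (median -0.43), and proliferation markers in 7 of 8 (-0.22). Markers of B cells, monocytes and epithelium or fibroblasts had medians of 0.15, 0.04 and 0.46. Each set has 1 vector array, so the set difference rests on those 2 arrays.

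**Figure D3:**
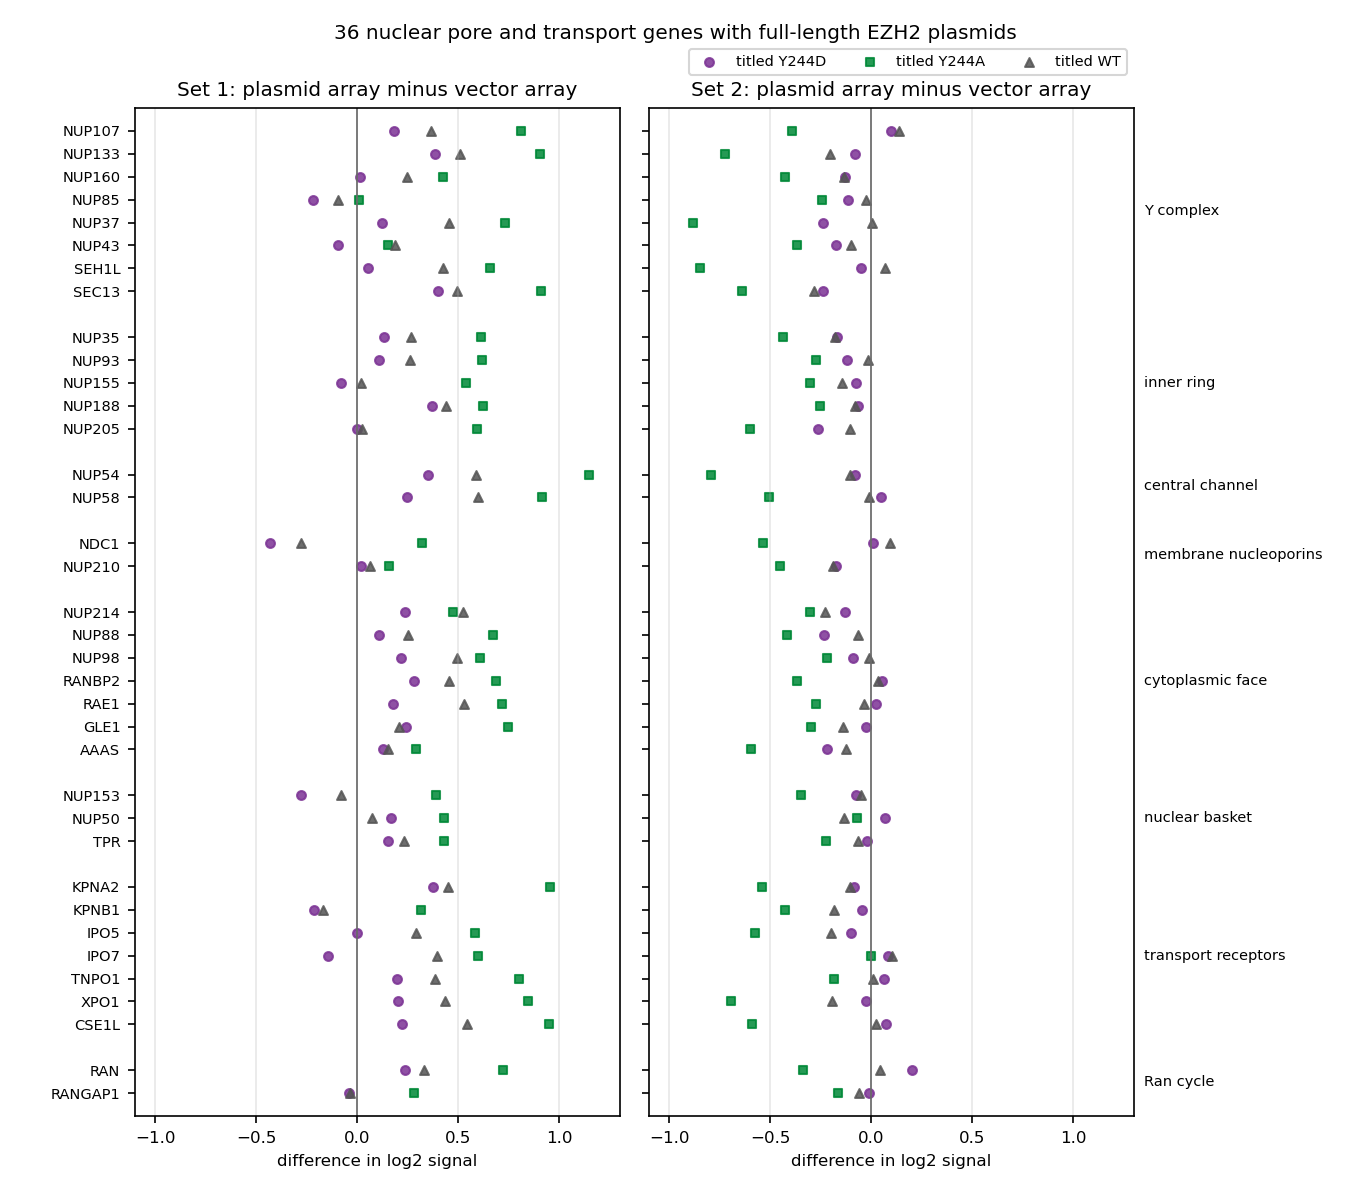
Difference in log2 signal (x axis) between each full-length EZH2 plasmid array, marked by its title, and the vector array of its set, for the 36 members by group (y axis), in set 1 (left) and set 2 (right). The array titled Y244A is highest above the vector in set 1 and farthest below it in set 2 for most members, with medians of 0.62 and -0.40.

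The vector arrays differed from each other in every member. The set 2 vector was above the set 1 vector in 36 of 36, with a median of 0.97 against 0.05 for all genes. Of the 25 other transport genes, 23 were above, with a median of 0.99. Members were bright genes, with a median log2 signal 1.117 (set 1 vector) and 2.26 (set 2 vector) above that of all probe sets. On the siRNA arrays it was 2.647 to 2.998 above. The part of brightness in these differences was not tested. Over the plasmid arrays, the members' median signal moved with the spread of the whole array. It was 158.3 on the set 1 vector, where the interquartile range of log2 signal was 1.79, and 308.9 on the set 2 vector, where it was 2.183. The 6 full-length arrays lay between them, from 170.1 at a range of 1.852 to 291.7 at a range of 2.137. With the interquartile range as a covariate, the set difference had 12 of 36 members below 0 and a median of 0.09, so its sign turned. Of 4 epithelial or fibroblast markers, the 3 above the signal filter (KRT18, COL1A1 and COL1A2) were below the vector in set 1, with a median of -0.40, and above it in set 2, with a median of 0.11. EPCAM, which was below the filter, had differences of -0.07 and -0.05. Natural killer markers above the filter mostly ran as the members did, with medians of 0.26 in set 1 and -0.21 in set 2. Of these 9, 7 were above the vector in set 1 and 7 below it in set 2. Proliferation markers had medians of 0.15 and -0.09, with 7 of 8 above and 8 of 8 below. Medians were -0.08 and 0.07 for 2 B cell markers, and 0.07 and 0.11 for 3 monocyte markers. The part of these markers in the members' values was not tested. Without the set 1 vector the plasmid comparison had 36 members below 0, and without the set 2 vector it had 0.

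**Figure D4:**
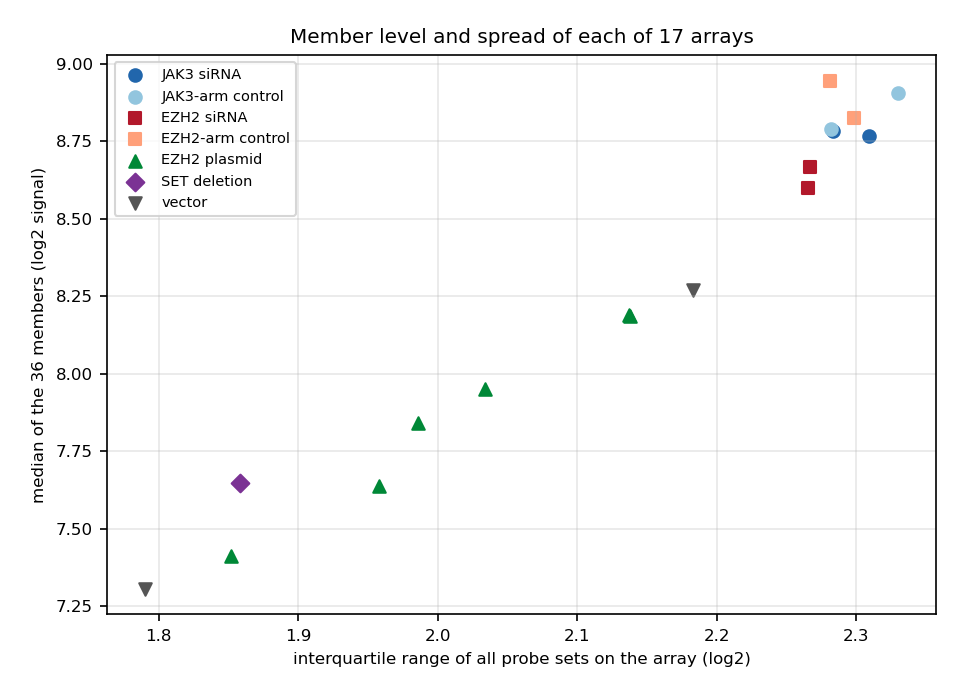
Median log2 signal of the 36 members (y axis) against the interquartile range of log2 signal over all probe sets (x axis), 1 point for each of the 17 arrays, by group. The plasmid and vector arrays run from a range of 1.79 and a median of 7.31 to 2.183 and 8.27, and the siRNA arrays lie together between 2.265 and 2.33.

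The array with EZH2 lacking its SET domain has no replicate and no test. It lay above the set 1 vector in 32 of 36 members, with a median of 0.32, and below the set 2 vector in 36 of 36, with a median of -0.61. AAAS, NDC1, NUP37 and NUP93 were below both vectors, 4 of 36 where 19.4% of all genes were, and 0 members were above both, where 7.48% of all genes were. NDC1 had 97.0 on this array against 99.8 and 165 on the vector arrays, a log2 difference of -0.04 from set 1 and -0.77 from set 2. Its title does not say which vector is its match. Over all genes its highest difference was 4.988 from the set 1 vector and 2.074 from the set 2 vector. The set 2 vector itself was up to 4.931 above the set 1 vector. AAAS, a cytoplasmic face protein mutated in Allgrove syndrome, had 99.7 against 142 and 167, the clearest of the 4. RANBP2 had 342 against 167 and 395, a log2 difference of 1.03 from the set 1 vector and of -0.21 from the set 2 vector. The proliferation markers had a median of -0.19 against the set 1 vector and of -0.68 against the set 2 vector on this array, and its interquartile range of 1.858 was near that of the set 1 vector.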

How the data were processed

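The deposited table holds the authors' linear signal intensity for 28869 probe sets on 17 arrays, from 100 ng of total RNA labelled with biotin, per the labels' protocols. Background correction, normalization and probe summary are not given in the sources used here. The deposited intensities were taken to log2. Arrays carry no count of reads, so the number of arrays limits the precision. In the platform annotation 19310 probe sets have 1 gene symbol, 1752 several and 7807 none, and RefSeq (GRCh38.p14) changed 0 symbols. The brightest probe set with 1 symbol, by the mean of log2 over the 17 arrays, represented each of 18377 genes. There were 0 columns of other samples, and no array repeated another.

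Genes under the 30th percentile of mean signal were left out, except JAK3 and EZH2, leaving 14466 genes on siRNA arrays and 14410 on plasmid arrays. The limma package (version 3.58.1; R 4.3.3; data.table, version 1.17.8) gave two-sided tests by lmFit and eBayes, with Benjamini-Hochberg adjustment over all genes tested and a threshold of 0.05. The 8 siRNA arrays were fitted together with the EZH2 pair as a block (3 residual degrees of freedom). Both siRNA comparisons thus share the spread estimated for a gene. The 6 full-length arrays were fitted against 2 vectors (6) without a term for the set, with a separate fit for the set difference (4). Titles give the EZH2 pairing. Deviations of same-numbered arrays from group means correlated with r = -0.09 in the EZH2 arm, 0.15 in the JAK3 arm and 0.84 in the plasmid sets. The fits were run on simulated data as a check of the code. The simulated noise was independent between genes and held no shared shift of an array. That check therefore does not show how the tests behave on these arrays.

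Members, lists and motifs were chosen with earlier results of these data known. Named with values were NDC1, each member called, and the lowest and highest member of each subunit group per siRNA comparison. For the plasmid arrays only some of such members were named, mostly those at or near the ends of the range or set apart from the others. Some were added outside these rules after their values were seen. They were NUP93 and KPNA2 after EZH2 siRNA, and NUP205, KPNA2, XPO1, NUP98 and AAAS after JAK3 siRNA. For the set difference they were NUP133 and NUP37. Of the other pathway genes the 2 lowest and 2 highest were named. Figures used Python 3.11.15, pandas 2.3.3 and matplotlib 3.10.9. Alternatives were another scaling, filter, probe set rule, variance prior, array weights, array spread as covariate, fewer arrays, the replicate block and leaving out each array.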

Additional observations from a re-analysis of the deposited data

How the results depend on the processing

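The siRNA tests rest on 2 arrays a group and the plasmid tests on 2 vectors, and a member's signal was never below 124 on siRNA arrays or 70.4 on plasmid arrays. After JAK3 siRNA the count of members called was 0, but 1 with trend and robust fitting (NUP54), 3 with array weights (IPO7, NUP35 and NUP54) and 1 when only the 4 arrays compared were fitted (NUP54). Its median was -0.078 after quantile normalization and ranged from -0.138 to -0.069 when each array was left out. After EZH2 siRNA the count of 2 became 0 with quantile normalization, with no filter, with array weights and with the interquartile range as covariate. It ranged from 0 to 14 when each array was left out, with 0 without an array of pair 1 and 14 without an array of pair 2, where 1 pair is left and the spread comes from the JAK3 arm. With centred medians, the 50th percentile filter and trend fitting it was 3, with NUP88 added, and with only the 4 arrays the 2 members called were NDC1 and NUP88. For the replicate block, the EZH2 fit with no replicate block called 0 members and 20 of all genes in place of 136, the JAK3 fit with a replicate block called 0 members and 104 of all genes in place of 200, and the plasmid fit with the set as replicate block called 0 members.

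Over all genes the JAK3 calls, 200, were 94 with no filter, 107 with the covariate, 699 with array weights, 523 with only the 4 arrays, and 33 to 45 when each array was left out. The EZH2 calls, 136, were 56 with quantile normalization, 0 with no filter, array weights or the covariate, 217 with only the 4 arrays, 230 with trend fitting, and 0 to 1511 when each array was left out. With plasmids the members below 0, 12 of 36, were 19 with the interquartile range as covariate, 3 within set 1 and 35 within set 2. They ranged from 0 to 36 when each array was left out, with 36 without vector 1, 0 without vector 2, and 5 without the arrays titled Y244D or WT of set 1, and the median ranged from -0.428 to 0.562. The set difference reversed with the interquartile range as covariate, with a median of 0.088 and 12 members below 0. With array weights it called 22 members, but 6806 of all genes too, and the weights did not converge. The cause of these changes was not tested. The remaining 154 recomputed values of these main results kept their direction and side of the threshold or moved by less than the spread between arrays, and for single members 946 of 1062 did. For the plasmid median this spread was 0.316, larger than the median of 0.091 itself, so the 154 include medians of opposite sign. Among them are -0.17 within set 2 and -0.011 with the interquartile range as covariate. The count therefore does not show a stable direction with plasmids.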
